A study of Mus musculus with 12 samples.

Results

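Calcium cycling by the sarcoplasmic reticulum was followed through 10 genes in 12 mouse hearts: Atp2a2, Pln, Ryr2, Casq2, Hrc, Trdn, Jph2, Slc8a1, Asph and Srl. The genes were picked by symbol for their known roles, and all 10 were among the 14957 genes of the count tables and among the 13910 that passed the filter on low counts. The libraries came from snap-frozen ventricles of wild-type (WT) C57Bl/6J mice, 1 mouse per library. Sham-NT denotes 4 mice given sham surgery and PBS. The 4 TAC-mScarlet mice had transverse aortic constriction (TAC), a narrowing of the aorta that loads the left ventricle, and received AAV9-MHCK7-mScarlet, an adeno-associated virus in which the muscle promoter MHCK7 drives the red fluorescent protein mScarlet. The 4 TAC-BacNav mice had TAC and received AAV9-MHCK7-BacNav-mScarlet, which adds BacNav, a bacterial voltage-gated sodium channel. Its use as a gene therapy in pressure overload is what the study assessed. Both vectors act chiefly in muscle through that promoter, and their transcripts were not analysed here. The labels used here state no age, sex, vector dose or sampling time. Sham mice received no vector, so the constriction and the control vector cannot be told apart in TAC-mScarlet against Sham-NT.

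Each heartbeat in a ventricular myocyte begins with calcium entering through the surface membrane at the dyad, where the sarcoplasmic reticulum (SR) lies close to a T-tubule. That entry opens ryanodine receptors, which release a larger amount of calcium from the SR, and the muscle contracts. Relaxation follows as the SR calcium pump returns calcium to the store and the sodium-calcium exchanger moves the rest out of the cell in exchange for sodium. The activity of the pump and of the release channel has long been studied in heart failure, and the exchanger ties calcium handling to cell sodium.

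Levels are given as CPM, counts scaled to library size with TMM factors, and where genes are compared with each other, as CPM per kb of merged exon length. Total counts were 5.36 to 11.5 M per library, and every Sham-NT library was shallower than every TAC-mScarlet library. The 10 genes together took 1.44% to 2.74% of all counts of a library. Cardiac muscle in the libraries was described with 10 cardiomyocyte markers, none of which was at 0 in any library. Their summed level was 88225 to 97802 CPM in Sham-NT, 59507 to 76894 CPM in TAC-mScarlet and 68504 to 89899 CPM in TAC-BacNav. Of these 10 markers, 3 fell and none rose in TAC-mScarlet against Sham-NT (edgeR, Benjamini-Hochberg). The 3 were Tnni3, Myh6 and Tnnt2, with log2 fold changes of −0.93, −0.74 and −0.48. Actc1, Actn2 and Mybpc3 stood at 0.00065, −0.0018 and 0.16, and of all 10 markers 8 were below 0 and 2 above. The marker sum, used below as a scaling, includes the markers that fell. The summed level of 9 fibroblast markers was 1304 to 1573 CPM in Sham-NT, 2151 to 6693 CPM in TAC-mScarlet and 1729 to 2538 CPM in TAC-BacNav, and 4 of the 9 rose. The summed level of 9 macrophage markers was 541 to 664 CPM, 764 to 1229 CPM and 757 to 874 CPM in the same order, and 5 of the 9 rose. No fibroblast or macrophage marker was at 0 in any library. None of 8 endothelial markers and none of 7 tested smooth muscle and pericyte markers passed the test. The 4 atrial markers in the files summed to 55.3 to 88.9 CPM in Sham-NT. Their sum was 402 to 2895 CPM in TAC-mScarlet and 105 to 351 CPM in TAC-BacNav. Nppa, which diseased ventricle also makes, is among them, with means of 44.9 CPM in Sham-NT and 1250.5 CPM in TAC-mScarlet. Myl7, Myl4 and Tbx5 had means of 1.96, 3.17 and 24.0 CPM in Sham-NT and 2.63, 2.71 and 16.8 CPM in TAC-mScarlet. In whole ventricle, fewer myocytes and less RNA per myocyte cannot be told apart.

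The library of TAC-mScarlet mouse 3 stood apart. It held the highest summed fibroblast level, 6693 CPM, and the highest summed macrophage level, 1229 CPM, while the other 3 TAC-mScarlet libraries were at 2151 to 3050 CPM and 764 to 773 CPM. Its cardiomyocyte marker sum of 59507 CPM was the lowest of all libraries. For 8 of the 10 calcium cycling genes it was the lowest of the 12 libraries, and for Asph it was the lowest of its own group. Casq2 was the exception, with mouse 2 lowest in that group. The fold changes of the 10 genes that use this library are therefore given with and without it.

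Promoters of 4 members that serve the same store are shown first. In TAC-mScarlet against Sham-NT the log2 fold changes of Hrc and Ryr2 were the lowest of the 10 (−0.67 and −0.65), that of Pln was −0.31 and that of Casq2 was 0.23. Of the 4 only Hrc passed the test described below. Differences between the genes, and any link of the windows to the fold changes, were not tested. Each window holds up to 250 bases before the RefSeq transcription start on GRCm38.p6, in lower case, ending before the first annotated exon base, and reads 5′ to 3′ on the gene's strand. Capitals mark matches on either strand to the TATA box TATAAA, the GC box GGGCGG, the GATA motifs AGATAA and TGATAA, the MCAT motif CATTCC, and the named motifs MEF2 and CArG. The E-box CANNTG was searched too and is left in lower case because 66.2% of all promoter windows hold it.
Pln (chr10:53337436-53337666, plus strand): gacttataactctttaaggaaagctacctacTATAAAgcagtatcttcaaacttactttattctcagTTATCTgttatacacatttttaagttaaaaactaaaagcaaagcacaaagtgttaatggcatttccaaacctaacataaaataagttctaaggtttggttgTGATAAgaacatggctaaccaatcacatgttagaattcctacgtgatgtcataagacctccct
Ryr2 (chr13:12106946-12107195, minus strand): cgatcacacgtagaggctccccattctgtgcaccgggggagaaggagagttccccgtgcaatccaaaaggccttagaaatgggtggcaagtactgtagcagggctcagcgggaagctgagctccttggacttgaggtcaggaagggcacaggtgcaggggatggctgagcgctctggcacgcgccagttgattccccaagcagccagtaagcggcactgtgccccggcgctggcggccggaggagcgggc
Casq2 (chr3:102086165-102086414, plus strand): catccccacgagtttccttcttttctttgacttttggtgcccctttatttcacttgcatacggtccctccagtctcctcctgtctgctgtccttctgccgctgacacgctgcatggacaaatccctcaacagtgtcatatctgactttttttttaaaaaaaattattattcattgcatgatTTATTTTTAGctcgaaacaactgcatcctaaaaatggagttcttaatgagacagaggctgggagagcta
Hrc (chr7:45335019-45335268, plus strand): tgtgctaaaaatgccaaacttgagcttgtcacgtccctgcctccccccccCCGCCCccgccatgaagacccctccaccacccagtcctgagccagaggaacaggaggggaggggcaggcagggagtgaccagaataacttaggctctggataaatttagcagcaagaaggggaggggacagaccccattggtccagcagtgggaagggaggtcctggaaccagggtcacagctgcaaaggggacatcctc
The Pln window holds a TATA box at −219 to −214, AGATAA at −183 to −178 and TGATAA at −82 to −77, counted from the RefSeq start site. Of 32851 windows from RefSeq genes, 12.4% hold the TATA box, 9.99% hold AGATAA and 7.94% hold TGATAA. The Casq2 window holds a MEF2 match at −69 to −60, a motif that 2.92% of windows hold. The Hrc window holds a GC box at −200 to −195, as 32.7% of windows do, and it ends at 45335268, short of the GENCODE gene start at 45335290. The Ryr2 window holds only E-boxes, at −102 to −97 and −66 to −61. None of the 4 windows holds MCAT or CArG, which 12.6% and 1.47% of windows hold, and no marked match overlaps another. A match describes letters, not a bound site. Windows were found for 6 of the 10 genes, the 4 printed and those of Jph2 and Slc8a1.

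In TAC-mScarlet against Sham-NT, 2 of the 10 genes fell and none rose: Atp2a2, the SR calcium pump, and Hrc, a calcium-binding protein of the SR lumen. Across all tested genes the edgeR quasi-likelihood test with Benjamini-Hochberg adjustment called 2.52% lower and 2.65% higher, 5.17% in all. In Atp2a2, Ryr2, Hrc and Trdn, every TAC-mScarlet library was below every Sham-NT library, 4 of 10 genes against 6.78% of all genes. The fold changes of the 10 genes had a median of −0.32 on the log2 scale with 8 of 10 below 0, beside a median of 0.0044 over all genes. The median of the 10 was −0.195 without TAC-mScarlet mouse 3, with 7 of 10 below 0, and without Sham-NT mouse 3 it was −0.21 with 7 of 10 below 0. With libraries scaled to the cardiomyocyte marker sum, 3 of the 10 were below 0 (Atp2a2, Hrc and Ryr2) and none of these passed. Casq2 and Asph passed with that scaling, both higher, as did 5045 of 13910 genes in either direction. None of the 10 passed the test without TAC-mScarlet mouse 3, where 0.692% of all genes did. Nor did any pass without TAC-mScarlet mouse 4, where 228 of 14053 genes did. The same was so without Sham-NT mouse 1, 2 or 4, where 256 of 14127, 14 of 14129 and 20 of 14138 genes passed. At an unadjusted p below 0.05, 4 of the 10 passed, where 22.2% of all genes did. DESeq2 called 4 of the 10, all lower, with Ryr2 and Trdn added, and 9.86% of all genes. In TAC-BacNav against TAC-mScarlet none of the 10 passed, and the test called 0% of all genes. At an unadjusted p below 0.05, 0 of the 10 passed where 3.36% of all genes did; DESeq2 called 5 genes in all and limma-voom 0, none of them among the 10.

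**Figure D1:**
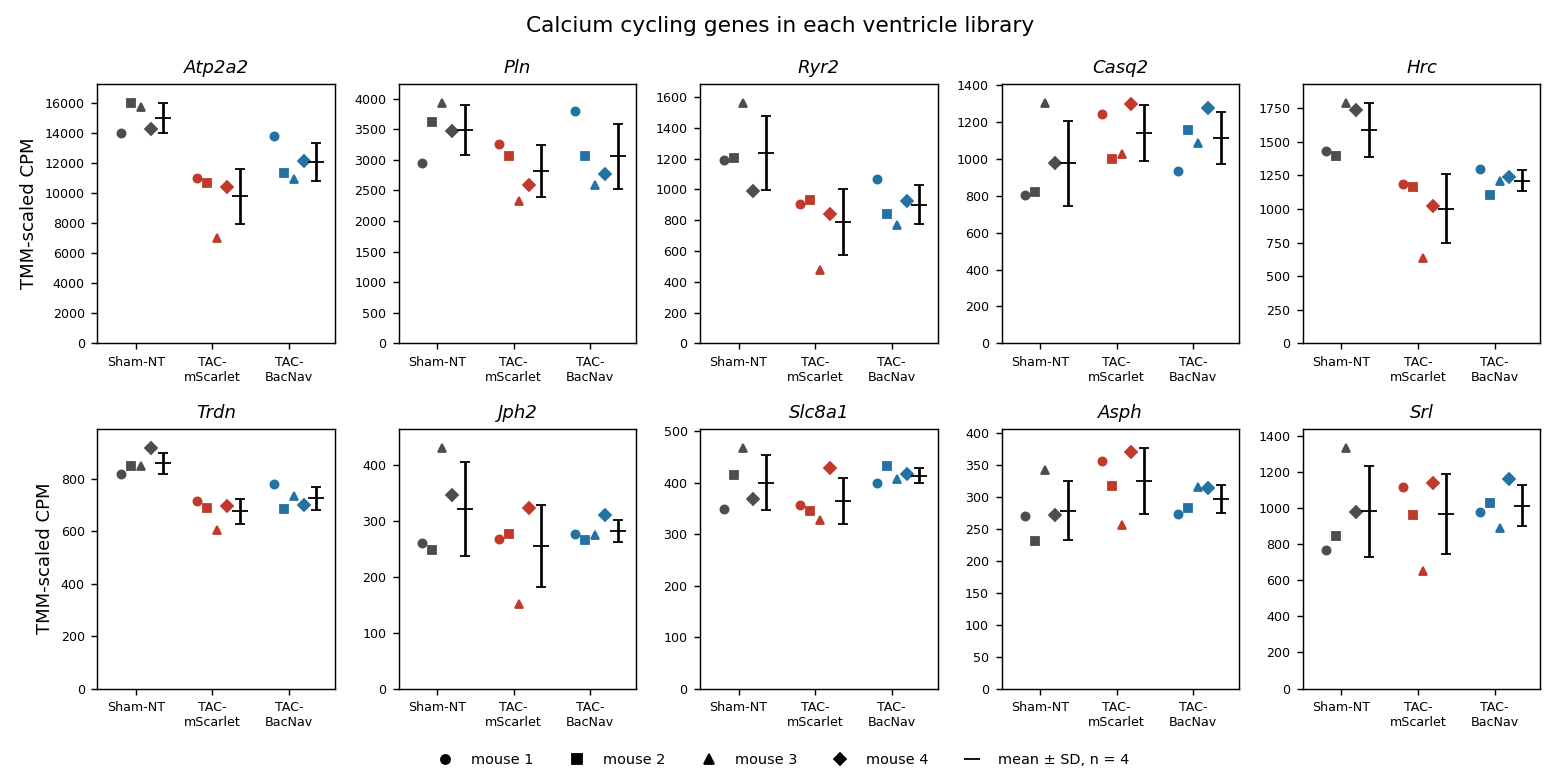
TMM-scaled CPM (vertical axis, each panel from 0) of the 10 calcium cycling genes in every library, by group on the horizontal axis, with the mouse number as the symbol and the group mean ± SD (n = 4) as the bar. The Atp2a2 and Hrc panels show the 4 TAC-mScarlet libraries below all 4 Sham-NT libraries, and TAC-mScarlet mouse 3 is the lowest point in 8 of the 10 panels.

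Calcium uptake rests on Atp2a2 and Pln. Atp2a2 (ENSMUSG00000029467.15; chr5:122453513-122502225, minus strand, GRCm38) encodes SERCA2, the pump that refills the SR. It was the most abundant of the 10 per kb of exon, at 2472 ± 165 CPM per kb in Sham-NT (SD, n = 4). Its level was 14039.9, 16035, 15742 and 14318 CPM in the Sham-NT mice 1 to 4. In TAC-mScarlet it was 11051, 10670.3, 7061 and 10436 CPM, and in TAC-BacNav 13826, 11370.1, 10952 and 12164 CPM. The lowest sham library was above the highest library of either TAC group, whereas the TAC-BacNav values overlapped those of TAC-mScarlet. Atp2a2 fell in TAC-mScarlet against Sham-NT, with a log2 fold change of −0.62 ± 0.15 (SE; 95% interval −0.94 to −0.30; adjusted p = 0.0323, edgeR), so that its level fell by 34.8%. Without TAC-mScarlet mouse 3 the change was −0.49 with an adjusted p of 0.0835, and the remaining 3 libraries averaged 10719 ± 311 CPM (SD, n = 3). Leaving out 1 library at a time kept the call in 3 of 8 fits, with adjusted p of 0.0311 to 0.0964. Scaled to the cardiomyocyte marker sum, the change was −0.19 (adjusted p = 0.205, edgeR), where that scaling put the median of all genes at 0.451.

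The TAC-BacNav mean of Atp2a2, 12078 ± 1269 CPM, lay between the 9804 ± 1847 CPM of TAC-mScarlet and the 15034 ± 1001 CPM of Sham-NT (SD, n = 4 each). Against TAC-mScarlet the log2 fold change was 0.30 ± 0.15 (95% interval −0.02 to 0.62), and it did not pass the test (unadjusted p = 0.0625, adjusted p = 1.00, edgeR). Without TAC-mScarlet mouse 3 it was 0.17. TAC-BacNav mouse 1, at 13826 CPM, came closest to the sham range. Against Sham-NT, TAC-BacNav stood at −0.32 ± 0.15 (95% interval −0.63 to 0.00; adjusted p = 0.454, edgeR), which also did not pass.

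Pln (ENSMUSG00000038583.13; chr10:53337667-53345987, plus strand), whose promoter window is shown above, encodes phospholamban, a small membrane protein that restrains SERCA2 until it is phosphorylated. Pln was 2946, 3619, 3931 and 3474 CPM in Sham-NT, 3265, 3060.2, 2335 and 2591 CPM in TAC-mScarlet and 3799, 3066, 2585 and 2777 CPM in TAC-BacNav. The 3 groups overlapped, and the highest and lowest libraries of TAC-BacNav spanned most of the range seen in the other groups. The log2 fold change in TAC-mScarlet against Sham-NT was −0.31 ± 0.15 (95% interval −0.64 to 0.01; adjusted p = 0.248, edgeR) and did not pass. TAC-BacNav against TAC-mScarlet gave 0.12 ± 0.15 (95% interval −0.21 to 0.45; adjusted p = 1.00, edgeR). Annotated exons of Gm47644 on the opposite strand cover 59.6% of the Pln exon length. The counting strand is not stated, but that partner averaged 111 counts per library against 24812 for Pln.

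The calcium release complex comprises the channel Ryr2 and the junctional proteins triadin (Trdn) and junctin (a product of Asph). Ryr2 (ENSMUSG00000021313.16; chr13:11553102-12106945, minus strand), the cardiac ryanodine receptor, was 1194, 1202, 1563 and 991 CPM in Sham-NT. It was 907, 934, 475 and 843 CPM in TAC-mScarlet and 1069, 843, 771 and 926 CPM in TAC-BacNav. All TAC-mScarlet libraries were below all sham libraries, by a narrow gap between sham mouse 4 and TAC-mScarlet mouse 2, and TAC-BacNav mouse 1 reached into the sham range. The log2 fold change in TAC-mScarlet against Sham-NT was −0.65 ± 0.20 (95% interval −1.07 to −0.23), similar in size to that of Atp2a2, but the wider spread put the adjusted p at 0.0663 (edgeR) and the gene did not pass. DESeq2 gave an adjusted p of 0.0223. Without TAC-mScarlet mouse 3, whose 475 CPM was far below the other 11 libraries, the change was −0.47. In TAC-BacNav against TAC-mScarlet Ryr2 differed by 0.19 ± 0.20 (95% interval −0.23 to 0.61; adjusted p = 1.00, edgeR), and by 0.01 without that library.

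Trdn (ENSMUSG00000019787.9; chr10:33080554-33476709, plus strand) encodes triadin, which anchors calsequestrin to the release channel. It was 821, 848, 850.4 and 918 CPM in Sham-NT, 715, 688, 605 and 697 CPM in TAC-mScarlet and 782, 686, 736 and 699.7 CPM in TAC-BacNav. Every TAC library of either group was below every sham library, and the TAC groups overlapped. TAC-mScarlet against Sham-NT gave a log2 fold change of −0.35 ± 0.11 (95% interval −0.58 to −0.12; adjusted p = 0.0727, edgeR), which did not pass, while DESeq2 gave an adjusted p of 0.00222. TAC-BacNav against Sham-NT gave −0.24 ± 0.11 (adjusted p = 0.434, edgeR), and TAC-BacNav against TAC-mScarlet 0.10 ± 0.11.

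Asph (ENSMUSG00000028207.18; chr4:9448069-9669344, minus strand) is a mixed locus that makes junctin and junctate of the SR as well as aspartate beta-hydroxylase, and gene-level counts do not separate these products. It was 270.4, 231, 343 and 272 CPM in Sham-NT, 357, 318, 256 and 372 CPM in TAC-mScarlet and 274, 284, 317 and 314 CPM in TAC-BacNav, with all 3 groups overlapping. The log2 fold change of 0.22 ± 0.14 in TAC-mScarlet against Sham-NT was above 0, unlike those of Ryr2 and Trdn, and did not pass (adjusted p = 0.392, edgeR). Exons of Clvs1 on the opposite strand cover 14.3% of the Asph exon length, with a mean of 9.50 counts per library against 2455 for Asph.

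Luminal storage is represented by Casq2, Hrc and Srl. Hrc (ENSMUSG00000038239.11; chr7:45335290-45338974, plus strand) encodes the histidine-rich calcium-binding protein, which binds both SERCA2 and triadin. It was 1434, 1396, 1786 and 1737 CPM in Sham-NT, 1190, 1160.4, 632 and 1023 CPM in TAC-mScarlet and 1295, 1106, 1205 and 1235 CPM in TAC-BacNav. Both TAC groups were below every sham library, and the TAC groups overlapped each other. Hrc fell in TAC-mScarlet against Sham-NT by a log2 fold change of −0.67 ± 0.17 (95% interval −1.03 to −0.30; adjusted p = 0.0381, edgeR), so that its level fell by 36.9%, the lowest fold change of the 10. Without TAC-mScarlet mouse 3 it was −0.50 (adjusted p = 0.0853, edgeR). Leaving out 1 library at a time kept the call in 2 of 8 fits, with adjusted p of 0.0360 to 0.113. Scaled to the cardiomyocyte marker sum it was −0.25 (adjusted p = 0.195, edgeR). In TAC-BacNav against TAC-mScarlet the difference was 0.27 ± 0.17 (95% interval −0.09 to 0.64; unadjusted p = 0.132, adjusted p = 1.00, edgeR), and 0.11 without that library.

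Casq2 (ENSMUSG00000027861.13; chr3:102086415-102146514, plus strand) encodes cardiac calsequestrin, the main calcium buffer of the SR. It was 801, 817, 1302 and 975 CPM in Sham-NT, 1244, 996, 1026 and 1297 CPM in TAC-mScarlet and 935, 1153, 1082 and 1276 CPM in TAC-BacNav. The groups overlapped, and sham mouse 3 held the highest value of all 12 libraries while the other sham libraries were at 801 to 975 CPM. Casq2 had a log2 fold change of 0.23 ± 0.16 in TAC-mScarlet against Sham-NT (95% interval −0.12 to 0.58; adjusted p = 0.453, edgeR), which did not pass. Scaled to the cardiomyocyte marker sum it was 0.66 and passed (adjusted p = 0.0179, edgeR), as did Asph at 0.65 (adjusted p = 0.0100), where 5045 genes passed and the median of all genes was 0.451. Between TAC-BacNav and TAC-mScarlet, Casq2 differed by −0.04 ± 0.16.

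Srl (ENSMUSG00000022519.14; chr16:4480216-4541816, minus strand) encodes sarcalumenin, a luminal glycoprotein that binds calcium and associates with SERCA2. It was 769, 844, 1333 and 979 CPM in Sham-NT, 1115, 963, 652 and 1141 CPM in TAC-mScarlet and 977, 1027, 889 and 1161 CPM in TAC-BacNav. Its sham values spread as widely as the TAC-mScarlet values, and the log2 fold change was −0.02 ± 0.19 (95% interval −0.43 to 0.38; adjusted p = 0.966, edgeR). The sign of that value turned under library size scaling, to 0.095, and without TAC-mScarlet mouse 3, to 0.13.

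Dyad architecture and calcium extrusion are represented by Jph2 and Slc8a1. Jph2 (ENSMUSG00000017817.11; chr2:163336242-163397993, minus strand) encodes junctophilin 2, which tethers the SR to the T-tubule. It was 260.5, 249, 431 and 347 CPM in Sham-NT, 269, 278, 151 and 323 CPM in TAC-mScarlet and 278, 267, 275 and 311 CPM in TAC-BacNav. TAC-mScarlet mouse 3 was far below its group, and the other 3 libraries lay within the sham range. In TAC-mScarlet against Sham-NT its log2 fold change was −0.34 ± 0.21 (adjusted p = 0.372, edgeR) with all libraries and −0.16 without mouse 3, and neither passed. TAC-BacNav differed from TAC-mScarlet by 0.15 ± 0.21 (95% interval −0.30 to 0.59; adjusted p = 1.00, edgeR).

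Slc8a1 (ENSMUSG00000054640.15; chr17:81373105-81738377, minus strand) encodes NCX1, the surface sodium-calcium exchanger, and it varied least over the 12 libraries, 1.43-fold from lowest to highest against 3.29-fold for Ryr2. It was 349.7, 416, 467 and 368 CPM in Sham-NT, 356, 345, 327 and 428 CPM in TAC-mScarlet and 399, 432, 407 and 417 CPM in TAC-BacNav. The 4 TAC-BacNav libraries lay within the sham range, and the groups overlapped. Its log2 fold change was −0.14 ± 0.12 in TAC-mScarlet against Sham-NT (95% interval −0.40 to 0.13; adjusted p = 0.565) and 0.18 ± 0.12 in TAC-BacNav against TAC-mScarlet (95% interval −0.08 to 0.45; adjusted p = 1.00, edgeR), and neither passed.

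**Figure D2:**
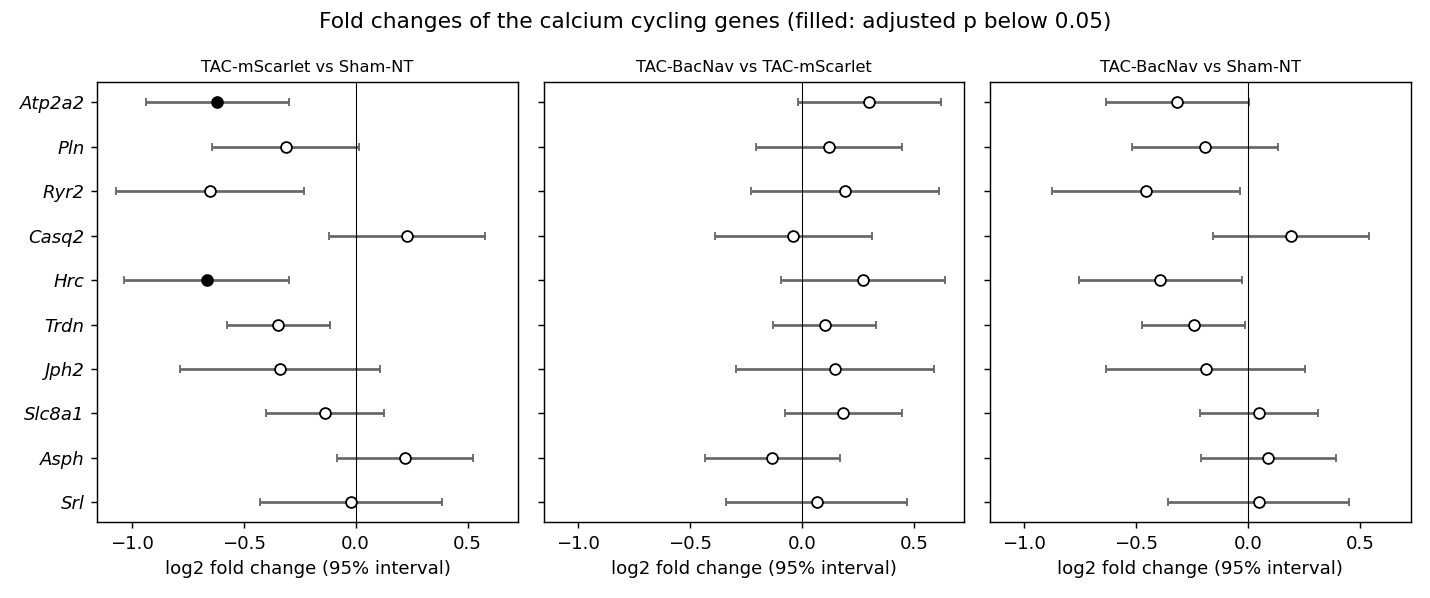
Log2 fold changes (horizontal axis) with 95% intervals of the 10 genes (vertical axis) in the 3 comparisons, filled where the adjusted p of the edgeR test was below 0.05. Only Atp2a2 and Hrc in TAC-mScarlet against Sham-NT are filled, and in TAC-BacNav against TAC-mScarlet every interval includes 0.

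In TAC-BacNav against TAC-mScarlet the median log2 fold change of the 10 genes was 0.13, with 8 of 10 above 0, beside 0.0036 over all genes. Leaving out TAC-mScarlet mouse 3 put the median at 0.029 with 6 of 10 above 0, and Jph2 and Srl turned to −0.034 and −0.079. With all libraries the 2 below 0 were Casq2 at −0.04 ± 0.16 and Asph at −0.13 ± 0.14. No gene of the 10 had groups that did not overlap, where 1.7% of all genes did. In TAC-BacNav against Sham-NT the median was −0.19 with 6 of 10 below 0, beside 0.0079 over all genes, and without Sham-NT mouse 3 the median was −0.073. None passed the test there (0.0144% of all genes did, edgeR), 3 had an unadjusted p below 0.05 (11.1% of all genes), and Atp2a2, Hrc and Trdn were lower in every TAC-BacNav library than in every sham library (2.37% of all genes). The remaining fold changes against TAC-mScarlet without mouse 3 were 0.14 for Slc8a1, 0.043 for Pln, 0.054 for Trdn, −0.083 for Casq2 and −0.23 for Asph. Those of TAC-mScarlet against Sham-NT without it were −0.23 for Pln, −0.30 for Trdn, −0.091 for Slc8a1, 0.27 for Casq2 and 0.32 for Asph. These 3 comparisons share libraries, so the same TAC-mScarlet or sham values enter more than 1 of them. That a gene passed in TAC-mScarlet and not in TAC-BacNav does not show that the groups differ, and the direct comparison of them called none.

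Per kb of exon, the order in Sham-NT ran from Atp2a2 (2472 ± 165 CPM per kb) through Pln (1266 ± 149) and Hrc (619 ± 78.7) to Casq2 (356 ± 84.9) and Srl (184 ± 47.0). Trdn (91.9 ± 4.42), Jph2 (75.7 ± 19.9), Ryr2 (43.0 ± 8.26), Slc8a1 (21.3 ± 2.80) and Asph (17.3 ± 2.88) followed, each as mean ± SD of 4 libraries. Trdn and Jph2, like Slc8a1 and Asph, were the neighbours in this order whose mean ± SD ranges overlapped. In TAC-mScarlet the means were 1612 CPM per kb for Atp2a2, 1019 for Pln, 390.3 for Hrc and 417 for Casq2. Hrc was above Casq2 in Sham-NT, and in TAC-mScarlet their mean ± SD ranges overlapped. The merged exon length counts every annotated exon, so it understates the level of genes with long or rarely used exons.

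**Figure D3:**
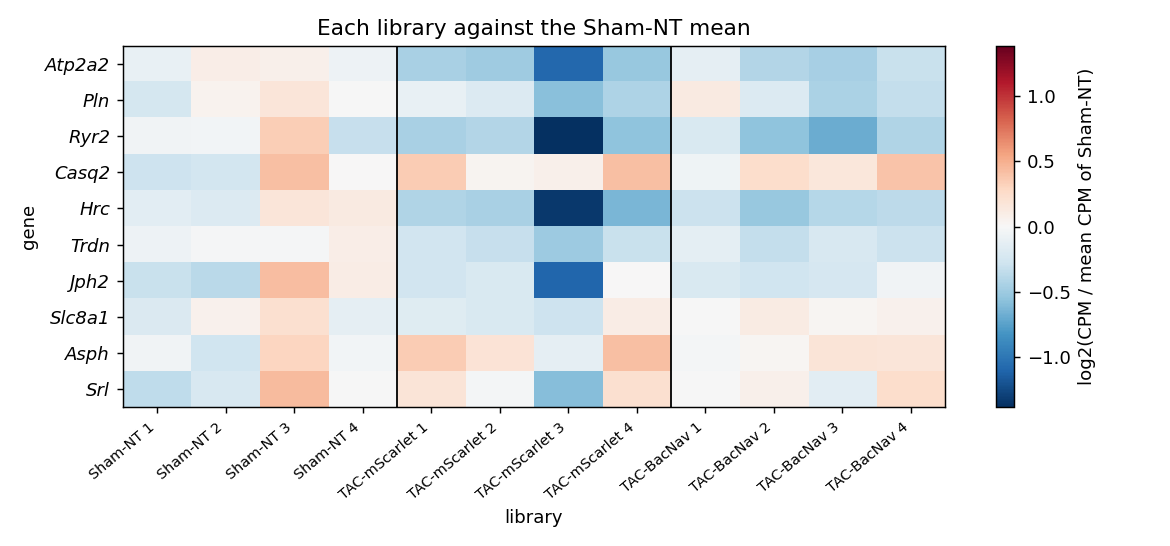
Log2 of each library's CPM over the mean Sham-NT CPM (colour, blue below and red above the sham mean) for the 10 genes (rows) in the 12 libraries (columns, with lines between groups). TAC-mScarlet 3 is the darkest blue column for Atp2a2, Ryr2, Hrc and Jph2, while Casq2 is at or above the sham mean in each TAC-mScarlet library.

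Across the 12 libraries the members did not vary as 1 block. Log2(CPM + 1) of Ryr2, Hrc and Trdn followed Atp2a2 with Pearson r of 0.94, 0.93 and 0.91, and Pln with r of 0.83. Jph2 had r of 0.69 with Atp2a2, Slc8a1 0.50 and Srl 0.40, whereas Asph and Casq2 had r of −0.15 and −0.27. Casq2 and Asph went together (r of 0.82), as did Jph2 and Srl (0.85). These are descriptions over 12 libraries of 3 groups, in which TAC-mScarlet mouse 3 is an extreme point, and the values share each library's depth and cell makeup.

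The libraries also divide by Fos, an immediate early gene, above or below 20 CPM: mice 1 and 2 of each group and TAC-mScarlet mouse 3 were above. Within the libraries above, the TAC-mScarlet to Sham-NT difference was −0.65 for Atp2a2, −0.51 for Hrc, −0.63 for Ryr2, −0.32 for Trdn and −0.19 for Pln, as log2 ratios of means. Within the libraries below, it was −0.53, −0.78, −0.60, −0.34 and −0.51 for the same genes, with TAC-mScarlet mouse 4 as the 1 TAC-mScarlet library. With the Fos side in the model, Atp2a2 (−0.62, adjusted p = 0.0182) and Hrc (−0.63, adjusted p = 0.0290, edgeR) still passed, as did 10.5% of all genes. None of the 10 genes passed the same test between the sides, where 3.97% of all genes did. The largest log2 differences, above minus below, were −0.39 for Jph2, −0.31 for Casq2, −0.29 for Srl and −0.24 for Asph. Their adjusted p were 0.150, 0.151, 0.286 and 0.216 (edgeR).

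Ratios of counts within a library do not depend on scaling, and 3 were compared over the 3 pairs of groups, 9 tests in all. Phospholamban transcripts per 100 Atp2a2 counts describe the inhibitor beside its pump: 21.0, 22.6, 25.0 and 24.3 in Sham-NT, 29.5, 28.7, 33.1 and 24.8 in TAC-mScarlet and 27.5, 27.0, 23.6 and 22.8 in TAC-BacNav. TAC-mScarlet ran higher, with mouse 4 inside the sham range. The mean log2 ratio differed from Sham-NT by 0.32 (exact permutation p = 0.0571, adjusted 0.171). TAC-BacNav against TAC-mScarlet differed by −0.20 (exact permutation p = 0.143, adjusted 0.321), with 3 of 4 TAC-mScarlet libraries above every TAC-BacNav library.

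Slc8a1 per 100 Atp2a2 counts, the exchanger beside the pump, was 2.49, 2.59, 2.97 and 2.57 in Sham-NT, 3.22, 3.24, 4.63 and 4.10 in TAC-mScarlet and 2.88, 3.80, 3.72 and 3.43 in TAC-BacNav. All TAC-mScarlet libraries were above all sham libraries, and mouse 1 was the 1 TAC-BacNav library inside the sham range. The log2 difference in TAC-mScarlet against Sham-NT was 0.50, at the smallest p that 4 against 4 libraries allow (two-sided exact permutation p = 0.0286), and after adjustment over the 9 tests it did not pass (adjusted p = 0.171, exact permutation). TAC-BacNav differed from Sham-NT by 0.38 (exact permutation p = 0.0571, adjusted 0.171) and from TAC-mScarlet by −0.13 (exact permutation p = 0.457).

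Ryr2 per 100 Atp2a2 counts, the release channel beside the pump, was 8.51, 7.50, 9.93 and 6.92 in Sham-NT, 8.21, 8.75, 6.72 and 8.08 in TAC-mScarlet and 7.73, 7.41, 7.04 and 7.61 in TAC-BacNav. The groups overlapped, and the log2 differences of −0.04, −0.09 and −0.13 for TAC-mScarlet against Sham-NT, TAC-BacNav against TAC-mScarlet and TAC-BacNav against Sham-NT did not pass (exact permutation p = 0.771, 0.371 and 0.371). Leaving out TAC-mScarlet mouse 3, the differences between TAC-mScarlet and Sham-NT were 0.25 for the Pln ratio, 0.40 for the Slc8a1 ratio and 0.036 for the Ryr2 ratio. Those between TAC-BacNav and TAC-mScarlet were then −0.14, −0.024 and −0.16 in the same order.

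**Figure D4:**
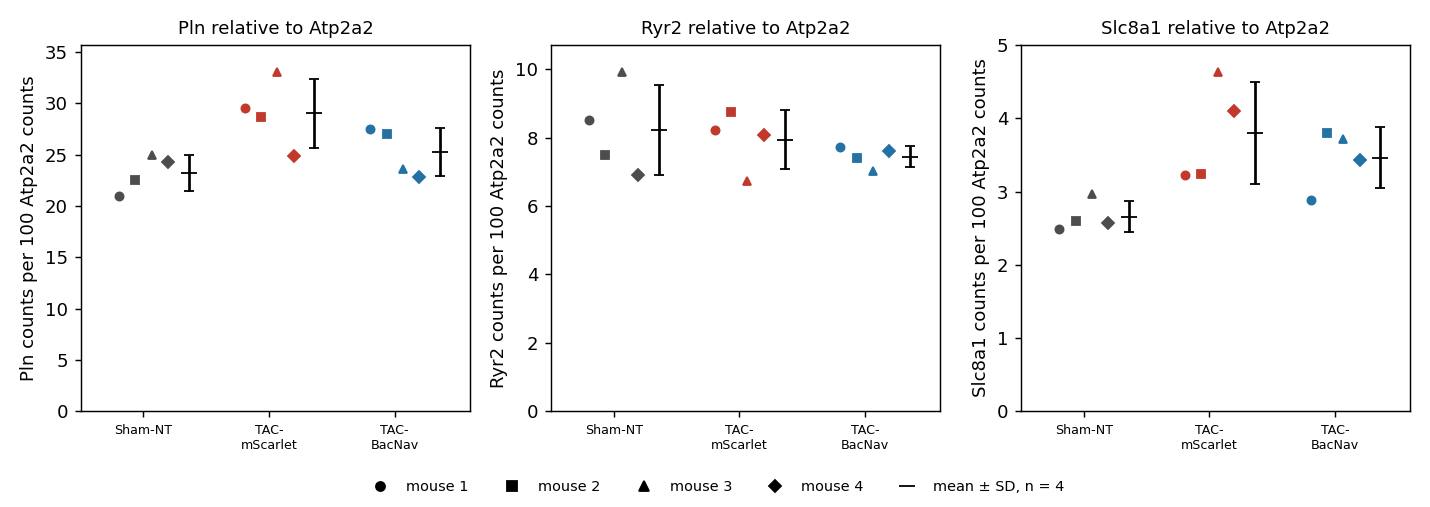
Counts of Pln, Ryr2 and Slc8a1 per 100 Atp2a2 counts (vertical axes from 0) in each library by group (horizontal axis), with mouse numbers as symbols and mean ± SD bars (n = 4). Slc8a1 runs from 3.22 to 4.63 in TAC-mScarlet and from 2.49 to 2.97 in Sham-NT, while the Ryr2 groups overlap.

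Further genes of calcium handling were taken from 4 wider lists. Among 12 tested regulators of the pump, which include micropeptides, phosphatase subunits and anchoring proteins, none passed in TAC-mScarlet against Sham-NT (median log2 fold change −0.07). Those with the smallest p were Strit1 and Hspb6. Strit1, which encodes the SERCA-activating micropeptide DWORF, was 85.7 ± 33.4 CPM in Sham-NT, 35.9 ± 17.0 CPM in TAC-mScarlet and 53.6 ± 15.2 CPM in TAC-BacNav (SD, n = 4 each). Its log2 fold change was −1.25 ± 0.40 (adjusted p = 0.0964, edgeR) in TAC-mScarlet against Sham-NT and 0.58 ± 0.40 in TAC-BacNav against TAC-mScarlet. Hspb6, a small heat shock protein that regulates the phosphatase acting on phospholamban, was 1178 ± 87.8 CPM in Sham-NT and 1667 ± 286 CPM in TAC-mScarlet (0.50 ± 0.19, adjusted p = 0.131, edgeR).

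Of 17 partners of the release channel and the dyad, 1 rose and 1 fell (median −0.04), where 2.65% of all tested genes rose and 2.52% fell. Bin1, a membrane-shaping protein of T-tubules, rose from 12.0 ± 2.56 CPM to 20.7 ± 7.22 CPM, 0.80 ± 0.22 on the log2 scale (adjusted p = 0.0449, edgeR). Without TAC-mScarlet mouse 3 the change was 0.53 and did not pass (adjusted p = 0.157, edgeR). TAC-BacNav held 14.8 ± 1.11 CPM of Bin1, −0.48 ± 0.21 against TAC-mScarlet (adjusted p = 1.00, edgeR). Pde4d, a cyclic AMP phosphodiesterase found in the ryanodine receptor complex, fell from 19.5 ± 1.89 CPM to 11.3 ± 2.27 CPM (−0.79 ± 0.19, adjusted p = 0.0295, edgeR) and was 14.0 ± 3.22 CPM in TAC-BacNav. Both calls were kept in 2 of the 8 fits that left out 1 library.

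None of 10 tested genes for other intracellular pumps, channels and stores passed (median 0.16). The smallest p were those of Calu, an SR and endoplasmic reticulum calcium-binding protein (0.27 ± 0.12, adjusted p = 0.211, edgeR), and Itpr3, an IP3 receptor (0.37 ± 0.19, adjusted p = 0.272). Of 8 tested genes for surface and mitochondrial calcium transport, 1 fell (median −0.10). Letm1, a mitochondrial inner membrane cation exchanger, fell from 157 ± 13.8 CPM to 118 ± 13.5 CPM (−0.41 ± 0.11, adjusted p = 0.0423, edgeR), held 141 ± 4.32 CPM in TAC-BacNav, and did not pass in any of the 8 fits that left out 1 library. In both comparisons with TAC-BacNav, none of the tested genes of the 4 lists passed. Over all genes, 0% passed there against TAC-mScarlet and 0.0144% against Sham-NT. Each median in TAC-mScarlet against Sham-NT stands beside 0.0044 over all genes, and the calls of the 4 lists beside 5.17% of all genes called.

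The genes whose log2(CPM + 1) ran most like that of 3 central members over the 12 libraries were named, members left out. For Atp2a2 they were Sod2 (r = 0.960), Cdk18 (0.960), Whrn (0.957), Crat (0.957) and Tmem63b (0.957). Of these, Sod2, the mitochondrial superoxide dismutase (−0.52, adjusted p = 0.0343), Whrn, a scaffold protein (−1.39, adjusted p = 0.0278), and Crat, carnitine acetyltransferase (−0.68, adjusted p = 0.0335, edgeR), also fell in TAC-mScarlet against Sham-NT. For Ryr2 they were Ank2 (0.957), which encodes ankyrin B, then Lclat1 (0.938), Rmc1 (0.935), Slc41a1 (0.935) and Idh3b (0.932), and none of these passed. For Pln they were the glycolytic enzyme gene Pfkm (0.966), Slc25a34 (0.954) and the mitochondrial enzyme genes Hadh (0.953), Sdha (0.953) and Got2 (0.952), and none of these passed either. The likeness is a description over 12 libraries that share depth and cell makeup. Genes picked for following Atp2a2 over these libraries tend to fall where it falls. The calls of Sod2, Whrn and Crat are therefore no separate result, and 2.52% of all tested genes were called lower.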

How the data were processed

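Bulk RNA-seq was read from ventricles of 12 mice in 3 labelled groups of 4. The deposited tables hold whole-number counts per gene, made by the authors with HISAT2 and featureCounts, per the submitters' processing notes. Those notes name the build GRCh38, while the tables carry mouse Ensembl identifiers. Tool versions and the strand and multi-mapping settings: not given in the sources used here. Of 14957 identifiers, 14946 matched GENCODE vM21 (GRCm38) without version, which gave positions and exon lengths. The main test was edgeR 4.0.16 (R 4.3.3): filterByExpr kept 13910 genes, and 1 robust quasi-likelihood model with TMM scaling was fitted to all 12 libraries. Two-sided p-values were adjusted by Benjamini and Hochberg over every tested gene, and genes were called below 0.05. The SE is the fold change over the square root of its F statistic. DESeq2 1.42.0, limma 3.58.1 (voom), other scalings and left-out libraries were alternatives.

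Depth was 5.36 to 11.5 M counts, and the common biological coefficient of variation was 0.203. Replicate libraries all differed by more than counting noise (chi-square over its degrees of freedom at least 5.70). Mouse numbers were checked for pairing. In 4 of 12 same-numbered pairs the correlation of deviations did not exceed 0.1, where the rule set here asked for all 12 above it. The main model therefore did not pair libraries by number. Mice 1 and 2 of each group were above the Fos cut, so the numbers may carry a grouping. A check of equal numbers cannot show such a grouping, and it was not tested. Ratios were compared by exact two-sided permutation of libraries.

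The 10 genes, the lists and the tests were chosen with earlier results of these data known. Named genes are the 10, and from each wider list every gene called in any comparison plus the 2 with the smallest p in TAC-mScarlet against Sham-NT. A gene under this rule is not reported here. For Atp2a2, Ryr2 and Pln, the 5 genes with the highest Pearson r of log2(CPM + 1) and a mean of at least 10 CPM were named, leaving out members. Promoter windows are from RefSeq (GRCm38.p6).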

Additional observations from a re-analysis of the deposited data

Results flagged for a closer look

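Within groups of 4 libraries, the highest and lowest values of the 10 genes and of the 3 count ratios were compared with their neighbours, 39 groups in all. In 1 of them a library lay further out than Dixon's 95% critical value for 4 samples allows. Atp2a2 in TAC-mScarlet mouse 3 was 7061 CPM, and its gap to the next library was 0.846 of the group's range. Chance alone puts about 1 in 20 groups past that value. The same library had the highest fibroblast marker sum, 6693 CPM, and the part of cell makeup in its Atp2a2 level was not tested.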

How the results depend on the processing

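In TAC-mScarlet against Sham-NT, 2 of the 10 genes passed. The count was 1 with library size scaling, where 903 of 13910 genes passed in all, and 4 with DESeq2 (1371 of 13907). With only the 2 groups compared it was 1 (658 of 13462). When 1 library was left out it was 0 to 2, with 14018 to 14159 genes tested. It was 0 without Sham-NT 1, 2 or 4, where 256, 14 and 20 genes passed in all. The count was also 0 without TAC-mScarlet 3 or 4, where 97 and 228 genes passed. Without Sham-NT 3 it was 1, beside 1055 genes in all. In both comparisons with TAC-BacNav the count of the 10 was 0 under every alternative run. The check of equal mouse numbers did not meet its rule, as 8 of 12 same-numbered pairs had a correlation over 0.1. Missing that rule does not show that pairing by number is absent. Correlations were −0.29 to 0.38 for the same number and −0.37 to 0.51 for others, and 3 libraries correlated best with their own number. With a replicate block, 2 of the 10 passed (Atp2a2 −0.64) and 889 genes in all, and in TAC-BacNav against TAC-mScarlet 6 genes passed, none of the 10.

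Scaling to the cardiomyocyte marker sum put the median of all genes at 0.451 in TAC-mScarlet against Sham-NT and turned signs. Of the 10, the 2 genes that passed with it were Casq2 and Asph, where 5045 of 13910 genes passed. For that comparison the scaling gave Pln 0.12, Trdn 0.10, Jph2 0.070, Slc8a1 0.30, Srl 0.39 and Letm1 0.040. For TAC-BacNav against TAC-mScarlet it gave Pln −0.050, Trdn −0.066 and Srl −0.068, and in TAC-BacNav against Sham-NT Pln 0.067, Trdn 0.030 and Jph2 0.083. Srl in TAC-mScarlet against Sham-NT was 0.095 with library size scaling (median of all genes 0.131) and 0.063 with the Fos side. With 1 library left out, signs turned within −0.12 to 0.16 for Srl there. Signs of TAC-BacNav against TAC-mScarlet turned within −0.0018 to 0.20 for Pln, −0.11 to 0.037 for Casq2, −0.034 to 0.28 for Jph2 and −0.079 to 0.16 for Srl. In TAC-BacNav against Sham-NT they turned within −0.012 to 0.13 for Slc8a1 and −0.055 to 0.23 for Srl. The log2 Ryr2 to Atp2a2 ratio difference in TAC-mScarlet against Sham-NT ran from −0.12 to 0.054. The cause was not tested. Of 510 refitted values of the 10 genes, 465 kept their direction and side of the threshold, 15 lost and 4 gained a call, and 26 turned sign. Only 2 of the 30 results had a call to lose, Atp2a2 and Hrc in TAC-mScarlet against Sham-NT, and all 15 losses were theirs. No gene of the 10 was called in the TAC-BacNav comparisons, so keeping the side of the threshold there says little about stability. Counted by gene and comparison, 15 of the 30 results turned sign under at least 1 alternative.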

Other observations

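The TAC-BacNav libraries lay close together for some of the 10 genes and not for others. The SD of Slc8a1 was 3.49% of its mean in TAC-BacNav, 12.2% in TAC-mScarlet and 13.2% in Sham-NT. For Jph2 it was 6.87%, 28.8% and 26.4% in the same order, and without TAC-mScarlet mouse 3 the TAC-mScarlet value was 10.0%. For Hrc it was 6.51%, 25.6% and 12.7%, with 7.92% in TAC-mScarlet without mouse 3. Pln went the other way, at 17.4%, 15.1% and 11.8%. Sham-NT was also tighter than TAC-BacNav for Atp2a2 (6.66% against 10.5%) and Trdn (4.82% against 5.93%). Without mouse 3, TAC-mScarlet was tighter than TAC-BacNav for Atp2a2 (2.90%), Trdn (2.01%) and Pln (11.6%). The same held for Ryr2 (5.25% against 14.2%) and Srl (8.94% against 11.2%). Differences in spread were not tested.

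Sham-NT mouse 3 held the highest level of 7 of the 10 genes over all 12 libraries.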
